A study of Mus musculus with 14 samples.

Results

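The libraries compared here are 2 of the aorta-gonad-mesonephros region (AGM) labelled E11.5, one from each of 2 sequencing rounds, and the dorsal skin library titled E9.5, so 3 of the 14 libraries of the series. The pair was chosen by the measured likeness of the libraries across genes, skin titled E9.5 being the closest skin library. Its Pearson correlation on log2 CPM, where CPM is a gene's count scaled to the library total was 0.981 with AGM round 1 and 0.98 with round 2, where the other skin libraries of its project reached 0.87 to 0.956 and the AGM libraries labelled E10.5 reached 0.975 to 0.978. The AGM rounds correlated with each other at 0.995. These values chose the pair and are given as a description.

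All samples were wild-type C57BL/6 mouse embryos for which no treatment is given, measured by polyA-selected RNA-seq from flash-frozen tissue. AGM was labelled E9.5, E10.5 and E11.5 with 2 libraries each, and the tissue field of the E9.5 samples names the caudal part of the embryo, PsP included, in place of the AGM. Skin had 4 libraries in a first project, 1 for each title (E9.5, then E10.5, then E12.5, then E14.5), and 4 more in a second project, titled ES, which were left out of the main comparisons. Whether paired libraries came from separate embryos is not stated. Xist, an RNA of female cells, had 0.203 and 494 CPM in rounds 1 and 2 of AGM labelled E9.5. In AGM labelled E10.5 it had 0.612 and 1035 CPM, so these pairs were not of the same material. This difference lies within the spread behind each p-value, the rest of which may be technical. AGM labelled E11.5 had 428 and 586 CPM of Xist, which does not tell whether its embryos differed. The 3 libraries held 24820391 and 21527400 counts in AGM rounds 1 and 2 and 19929352 counts in skin. The second-round AGM library was given its age by its sample number, which the first-round labels tie to E11.5. No sequencing project holds both tissues, so tissue and project cannot be told apart.

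The AGM is the strip of trunk around the dorsal aorta that holds aortic endothelium, the first definitive blood stem cells, the mesonephric kidney and the gonadal ridge. Dorsal skin at this stage is a single-layered surface ectoderm over mesenchyme, next to the neural tube and somites. At the hind end of younger embryos the tail bud adds presomitic mesoderm to the trunk under control of the T-box factors T and Tbx6, the basic helix-loop-helix factor Msgn1, the caudal factors Cdx2 and Cdx4 and Wnt signals. Later the trunk switches off such genes along with stage genes such as Lin28a, which blocks let-7 microRNA maturation, and the mesonephros and gonad switch on Wt1 and Nr5a1.

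Sequences are shown because many genes that differed carry stretches that other annotated genes also carry. Shown first are 50-base stretches of coding sequence on GRCm38, with positions counted from 1 at the A of the start codon and read from the GENCODE M21 transcripts. For the ribosomal protein genes Rpl23a and Rpl19 each line gives the stretch that most other genes share. The first stretch of Cdx4, a tail bud gene with none shared, is given for contrast.
Rpl23a, bases 250 to 299: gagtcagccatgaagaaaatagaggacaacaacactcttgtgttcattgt
Rpl19, bases 258 to 307: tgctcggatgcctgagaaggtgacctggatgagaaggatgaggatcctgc
Cdx4, bases 1 to 50: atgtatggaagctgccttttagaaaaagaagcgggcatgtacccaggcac
The Rpl23a stretch is present unchanged in transcripts of 17 other annotated genes, all of them pseudogenes, and the Rpl19 stretch in 12 with 7 pseudogenes. In both genes 100.0% of the 50-base stretches of the coding sequence recur in at least 1 other gene, where in Cdx4 none does. Rpl23a and Rpl19 lie on chromosome 11, at 78180932 to 78183584 and 98026710 to 98030492.

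The promoters of 3 tail bud genes follow, from 250 bases before to 50 after the start, credited to RefSeq on GRCm38.p6 and written 5′ to 3′ on the gene's strand. Capitals mark CTTTGA, the core of the TCF/LEF motif, and AGGTGT, a T-box core, on either strand. These are shown because all 3 genes were called higher in AGM labelled E11.5. In the other AGM libraries Cdx4 and Msgn1 were near 0 and T was not.
Cdx4, chrX:103321148-103321447, plus strand: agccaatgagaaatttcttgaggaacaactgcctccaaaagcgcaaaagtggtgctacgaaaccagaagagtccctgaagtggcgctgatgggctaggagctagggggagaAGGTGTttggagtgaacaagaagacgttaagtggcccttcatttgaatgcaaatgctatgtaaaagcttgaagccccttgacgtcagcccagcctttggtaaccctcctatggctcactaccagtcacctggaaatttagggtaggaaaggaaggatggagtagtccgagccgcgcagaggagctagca
Msgn1, chr12:11208899-11209198, minus strand: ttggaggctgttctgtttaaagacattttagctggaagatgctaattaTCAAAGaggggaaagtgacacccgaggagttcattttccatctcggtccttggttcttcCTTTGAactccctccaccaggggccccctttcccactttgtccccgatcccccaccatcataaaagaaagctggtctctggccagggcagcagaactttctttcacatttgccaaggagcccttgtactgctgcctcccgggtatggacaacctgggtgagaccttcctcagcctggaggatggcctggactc
T, chr17:8434173-8434472, plus strand: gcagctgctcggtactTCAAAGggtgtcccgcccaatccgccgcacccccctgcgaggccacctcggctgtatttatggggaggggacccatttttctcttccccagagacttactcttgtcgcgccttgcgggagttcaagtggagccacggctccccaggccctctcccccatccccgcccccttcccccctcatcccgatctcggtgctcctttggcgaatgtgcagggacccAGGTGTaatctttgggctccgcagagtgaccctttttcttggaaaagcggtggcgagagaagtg
Of the 15 tail bud and caudal protein-coding genes named below that were called higher in AGM, a set picked by its values, 11 had an entry in the table. The TCF/LEF core was present in 4 of the 11 and in 16% of the 32851 promoters of this length, and the T-box core in 3 of the 11 and in 13.7%. A match is a description of these letters and shows no site in use.

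Across the 19945 genes with enough counts, the libraries were close. In both AGM rounds 14760 genes (74%) lay within 1.5-fold of skin, and the median log2 ratio was -0.0952. A gene is called here where it was 4-fold or more higher, or lower, in both AGM rounds on the scale of log2(CPM + 0.5), a scale that understates the change of low genes. By that rule 159 genes were higher in AGM (0.797% of those tested) and 28 were lower (0.14%). This contrast chose the skin library and skin has 1 library in it, so no p-value is given for it. Just inside the threshold was Sema3e at log2 ratios of 2.21 and just over 2 in rounds 1 and 2, with Kcnq1ot1 at -2.21 and -2.15 among lower genes. Just outside were Nxpe2 at just under 2 and 2.43 and, among lower genes, Prdm12 at -2.15 and -1.98.

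**Figure D1:**
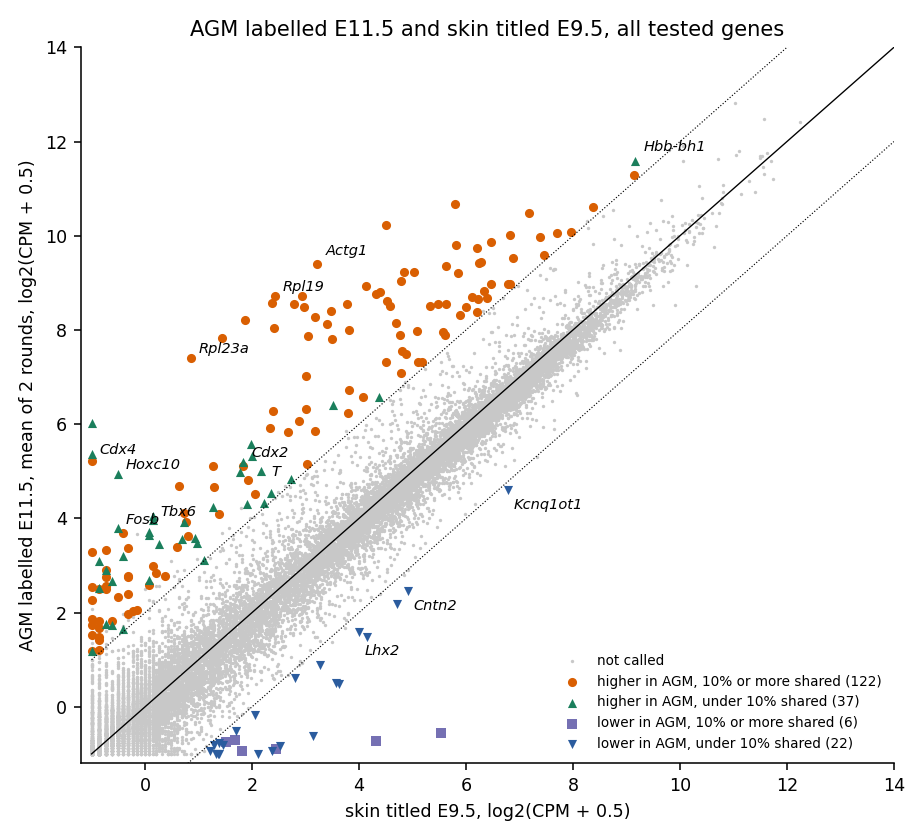
Each point is 1 of 19945 tested genes, with its mean level in the AGM libraries labelled E11.5 on the vertical axis and its level in the skin library titled E9.5 on the horizontal axis, both as log2(CPM + 0.5). Dotted lines mark 4-fold. Of the 159 genes higher in AGM, 122 (orange) share 10% or more of their 50-base stretches with another gene and 37 (green) share less.

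The ages on the AGM labels were checked against stage genes, since the pair sets AGM labelled 2 days older beside skin. Lin28a had 23 and 40.8 CPM in AGM labelled E9.5, 121 and 129 CPM in AGM labelled E10.5 and 571 and 496 CPM in AGM labelled E11.5. In the first-project skin libraries, youngest first, it had 366, 84.6, 0.667 and 0.94 CPM. So it was high in the younger skin libraries, and among AGM libraries it was highest in those with the oldest label. Trim71, a let-7 target that marks early embryos, had 36.9 and 45.4 CPM in AGM labelled E9.5, 80.4 and 81.4 in AGM labelled E10.5, 192 and 168 in AGM labelled E11.5 and 250.2 in skin at E9.5. Sall4, a factor of early embryonic cells, followed the same order, with 38.6 and 36.5 CPM in AGM labelled E9.5, 58 and 53.1 CPM in AGM labelled E10.5 and 178 and 125 CPM in AGM labelled E11.5.

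Of 9 early timing genes, 6 had both AGM libraries labelled E11.5 above all other AGM libraries, Igf2bp3 and Igdcc3 overlapped, and Hmga2 had them below. Hmga2, a chromatin protein gene of growing embryonic cells and a let-7 target, had 1186 and 1406 CPM in AGM labelled E9.5, 1119 and 1091 CPM in AGM labelled E10.5 and 844 and 857 CPM in AGM labelled E11.5. In the first-project skin libraries, youngest first, it had 683, 426, 470.3 and 71.6 CPM.

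Nr5a1 and Wt1 ran in the other direction from Lin28a. Nr5a1, the steroidogenic factor of the gonadal ridge and adrenal, had 17 and 13.4 CPM in AGM labelled E9.5, 9.71 and 7.32 CPM in AGM labelled E10.5 and 0.0806 and 0 CPM in AGM labelled E11.5. Wt1, a factor of coelomic epithelium, mesonephros and gonad, had 117 and 104 CPM in AGM labelled E9.5, 86.4 and 78 in AGM labelled E10.5 and 8.86 and 8.87 in AGM labelled E11.5, with 12.1 CPM in skin at E9.5. In Lin28a, Trim71, Sall4, Nr5a1 and Wt1 the AGM libraries labelled E10.5 lay between the other AGM groups with no overlap. The levels of Lin28a, Trim71 and Sall4 order the AGM libraries against their age labels when set beside skin, and Hmga2 orders them with the labels, so each library is called by its label below. The tissue field that names the caudal embryo belongs to the libraries labelled E9.5, while tail bud genes such as Cdx4, Cdx2 and Tbx6 were highest in those labelled E11.5. Hox genes of groups 10 to 13 had the other order. Those that passed the filter on low counts summed to 225 and 244 CPM in AGM labelled E9.5, 166 and 123 CPM in AGM labelled E10.5 and 79.7 and 44.5 CPM in AGM labelled E11.5. Hoxc10 was also lowest in AGM labelled E11.5. Whether age labels were exchanged was not tested.

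**Figure D2:**
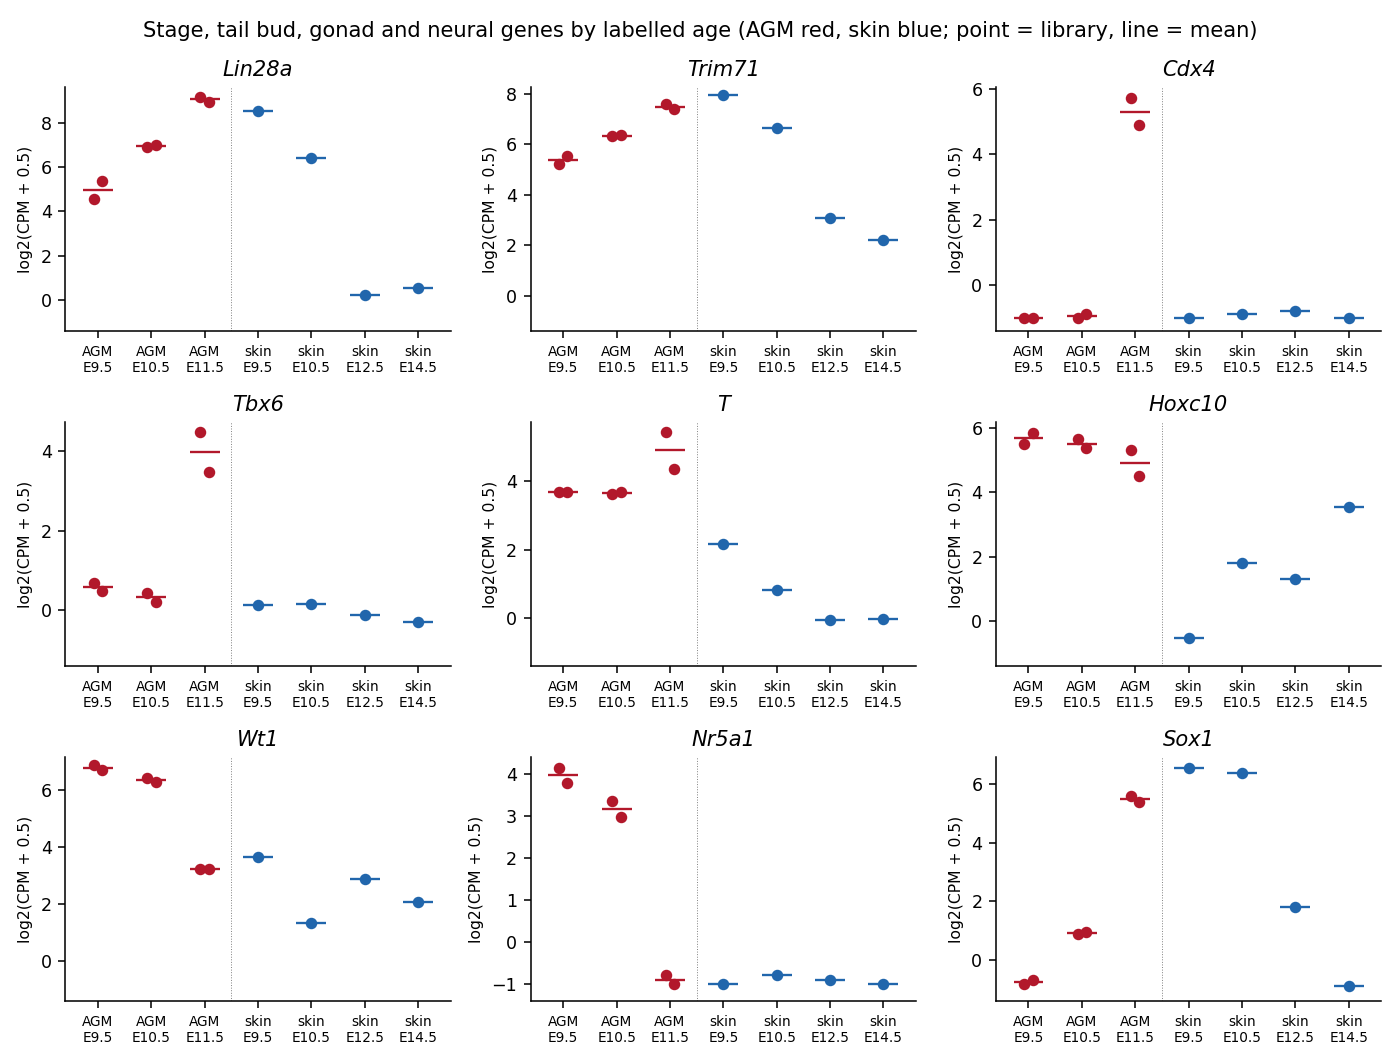
Levels of 9 genes as log2(CPM + 0.5), with AGM groups (red) left of skin libraries (blue), each in the order of the labelled age; points are libraries and lines are means. Lin28a and Trim71 are highest in AGM labelled E11.5 among AGM groups and in E9.5 among skin libraries, and Cdx4 and Tbx6 are high in AGM labelled E11.5 and near 0 CPM elsewhere.

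Few tissue markers were called in this pair, which was chosen for its likeness. Over all tested genes 0.797% were called higher and 0.14% lower, and counts this low say nothing particular to the tissues. Of 16 endothelial genes none was called, and Kdr, a receptor for vascular growth factor, had 124 and 104 CPM in AGM and 129 CPM in skin. Blood stem and progenitor genes had 0 of 17 called with a summed level of 379 and 369.7 CPM in AGM and 403 CPM in skin. Runx1, the factor that blood stem cell formation requires, had 3.91 and 4.55 CPM in AGM and 2.71 CPM in skin. Of the defining epidermal genes, Trp63 had 9.39 and 14.2 CPM in AGM and 10.6 CPM in skin, and Krt5 had 2.94 and 5.95 CPM in AGM and 3.36 CPM in skin. None of these genes was called, and the epidermal genes did not mark the skin library off from AGM. Dermal mesenchyme genes had 0 of 13 higher and 1 lower, coelomic and gonad genes 0 of 12 and 1, and adrenal and steroid genes 0 of 8 and 1. Mesonephros and intermediate mesoderm genes had 0 of 15 called, with 11 above skin in both AGM rounds and 3 below.

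One group among the genes higher in AGM was that of the tail bud and its presomitic mesoderm. In bulk tissue fewer cells of a type and less RNA per cell cannot be told apart, which holds for every group below. Of 12 presomitic and somite genes 5 were higher in AGM and none was lower, against 0.797% of all tested genes, and the list's median log2 ratio was 1.69 and 1.41 in rounds 1 and 2. This list, like every list here, was chosen with earlier results of these data known, so such counts are a description. T, the brachyury factor of tail bud and notochord, had 43.1 and 20.2 CPM in AGM and 3.96 CPM in skin. Tbx6, which commits cells to the presomitic fate, had 21.8 and 10.545 CPM in AGM and 0.602 CPM in skin. Both AGM rounds were above skin in each, and round 1 was about double round 2.

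Msgn1, a presomitic factor downstream of Wnt signals, had 7.13 and 3.34 CPM in AGM and 0.0502 CPM in skin, a single count. Hes7, the oscillating repressor of the segmentation clock, had 9.02 and 4.92 CPM in AGM and 0.1 CPM in skin. Ripply2, a repressor at the forming somite border, had 2.05 and 3.67 CPM in AGM and 0.1 CPM in skin. Of the members not called, Mesp2, which positions the somite border, had 1.21 and 3.86 CPM in AGM and 0.0502 CPM in skin. Wnt3a, the tail bud Wnt ligand that the roof plate of the neural tube also makes, had 13.4 and 9.15 CPM in AGM and 10.49 CPM in skin. Later somite genes were level, with Meox1 at 166 and 192 CPM in AGM and 181 CPM in skin.

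Cdx4, a caudal homeobox factor on chromosome X at 103321398 to 103330592, had 51.9 and 29.2 CPM in AGM and no count in skin, which makes it at least 269-fold higher in AGM against a floor of 3 counts in the skin library. Cdx2, its relative on chromosome 5 at 147300805 to 147307270, had 49.2 and 23.1 CPM in AGM and 3.06 CPM in skin. Both were near 0 in the other AGM libraries, Cdx4 at 0 to 0.0387 CPM and Cdx2 at 0.247 to 1.36 CPM. Other caudal genes among the 159 were picked out after their values were seen. Evx1, a homeobox factor of the primitive streak and tail bud, had 16.2 and 7.99 CPM in AGM and 0.552 CPM in skin. Its antisense neighbour Evx1os overlaps part of it, and reads from that part cannot be told apart without strand. Evx1os had 10.76 and 5.3 CPM in AGM and 0.0502 CPM in skin. Fgf17, a fibroblast growth factor of the tail bud, had 14 and 3.44 CPM in AGM and 0.251 CPM in skin.

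Noto, the notochord homeobox gene, had 1.69 and 1.86 CPM in AGM and no count in skin, at least 11.8-fold higher. Cer1, a secreted inhibitor with a stripe in forming somites, had 4.71 and 7.11 CPM in AGM and 0.151 CPM in skin. Ifitm1, an interferon-induced membrane protein gene of the presomitic mesoderm, had 52 and 42.9 CPM in AGM and 3.46 CPM in skin. Pitx1, the hindlimb-field homeobox factor, had 35.9 and 26.9 CPM in AGM and 2.91 CPM in skin. The AGM rounds lay above skin in all of these genes. Of the tail bud and caudal genes named, none shared 10% or more of its stretches with another gene, the highest being Hoxc10 at 6.4%.

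Posterior Hox genes, which give the trunk its position along the axis, were mostly not called. Of 12 genes of paralogue groups 10 to 13, Hoxc10 alone was called, with 38.8 and 22.1 CPM in AGM and 0.201 CPM in skin. Over all tested genes 0.797% were called higher. Of the 12, 6 lay above skin in both AGM rounds and 0 below, while 4 had no count in skin and 2 none in AGM. The 12 summed to 79.7 and 44.5 CPM in AGM and 12.2 CPM in skin. Hoxa10 had 19.7 and 11.3 CPM in AGM and 3.41 CPM in skin. Among groups 6 to 9 Hoxc9 was called at 21.6 and 16.9 CPM in AGM and 3.26 CPM in skin, while Hoxb9 had 215 and 200 CPM in AGM and 212 CPM in skin. Genes of groups 1 to 5 had a median log2 ratio of -0.37 and -0.58 with 0 of 15 called.

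On the neural tube progenitor and young neuron lists none was called, and all 14 genes of each had a lower level in both AGM rounds than in skin. Cntn2, Onecut3 and En1, which are outside these lists, were called lower and are given below. The 14 neural tube progenitor genes had a median log2 ratio of -0.99 and -1.07 with 0 called, and their summed level was 499 and 469 CPM in AGM and 979 CPM in skin. All 14 had counts in each of the 3 libraries. Sox1, a factor of the early neural plate, had 48 and 41.5 CPM in AGM and 91.8 CPM in skin, and Pax6, a progenitor factor, had 57.9 and 67.3 CPM in AGM and 118 CPM in skin. The 14 young neuron genes summed to 185 and 231 CPM in AGM and 551 CPM in skin, with 0 called and medians of -1.46 and -1.09. Skin was above both AGM rounds in both sums. Other lists leaned the same way. Of 11 sclerotome and cartilage genes 10 lay below skin in both rounds and 0 above, and of 14 skeletal muscle genes 12 lay below and 1 above. The median log2 ratio of all tested genes was -0.0952, and the share of them below skin in both rounds was not counted. The part of the neural genes in the other results was not tested.

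Of the red cell genes 1 was called, and all 7 haemoglobins and all 12 genes of red cell regulation, membrane and haem had a higher level in both AGM rounds than in skin. The 7 haemoglobins summed to 9235 and 12401 CPM in AGM and 2603 CPM in skin, with a median log2 ratio of 1.59 and 1.97. Hbb-bh1, the embryonic beta-like globin, was the 1 called, at 2380.5 and 3813 CPM in AGM and 572 CPM in skin. Genes of red cell regulation, membrane and haem had 0 of 12 called and a median of 1.62 and 1.87. Gata1, the master factor of red cells, had 19.8 and 22.2 CPM in AGM and 4.92 CPM in skin. Both AGM rounds lay above skin in both genes, and all 12 genes of the list had counts in each library. Over all tested genes 0.797% were called higher, and the share above skin in both rounds was not counted. Other lists leaned the same way, with 8 of 9 simple epithelium genes above skin in both rounds and 0 below. Of 18 listed ribosomal protein genes 17 lay above and 1 below.

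Of 9 simple epithelium genes none was called. Krt8, a keratin of single-layered epithelia, had 112 and 108 CPM in AGM and 29.7 CPM in skin. It shares 26.9% of its 50-base stretches with another gene, so its counts are uncertain. Krt18, another such keratin, shares 0.72% and had 92.6 and 99.3 CPM in AGM and 49.3 CPM in skin. Of 11 immediate early genes, which cells switch on within minutes of a stimulus such as dissection, 2 were higher, against 0.797% of all tested genes. Fosb had 15.6 and 11.1 CPM in AGM and 0.201 CPM in skin, and Fos had 12.3 and 10.3 CPM in AGM and 1.1 CPM in skin. Both were far higher in the other AGM libraries, Fosb at 70.3 to 111 CPM and Fos at 83.8 to 159 CPM. The AGM rounds parted in liver and yolk sac genes. Afp, a fetal serum protein gene, had 15.6 CPM in round 1 and 106 CPM in round 2 of AGM and 73.4 CPM in skin, and Apob, an apolipoprotein gene, had 19.9 and 106 CPM in AGM and 25.8 CPM in skin.

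**Figure D3:**
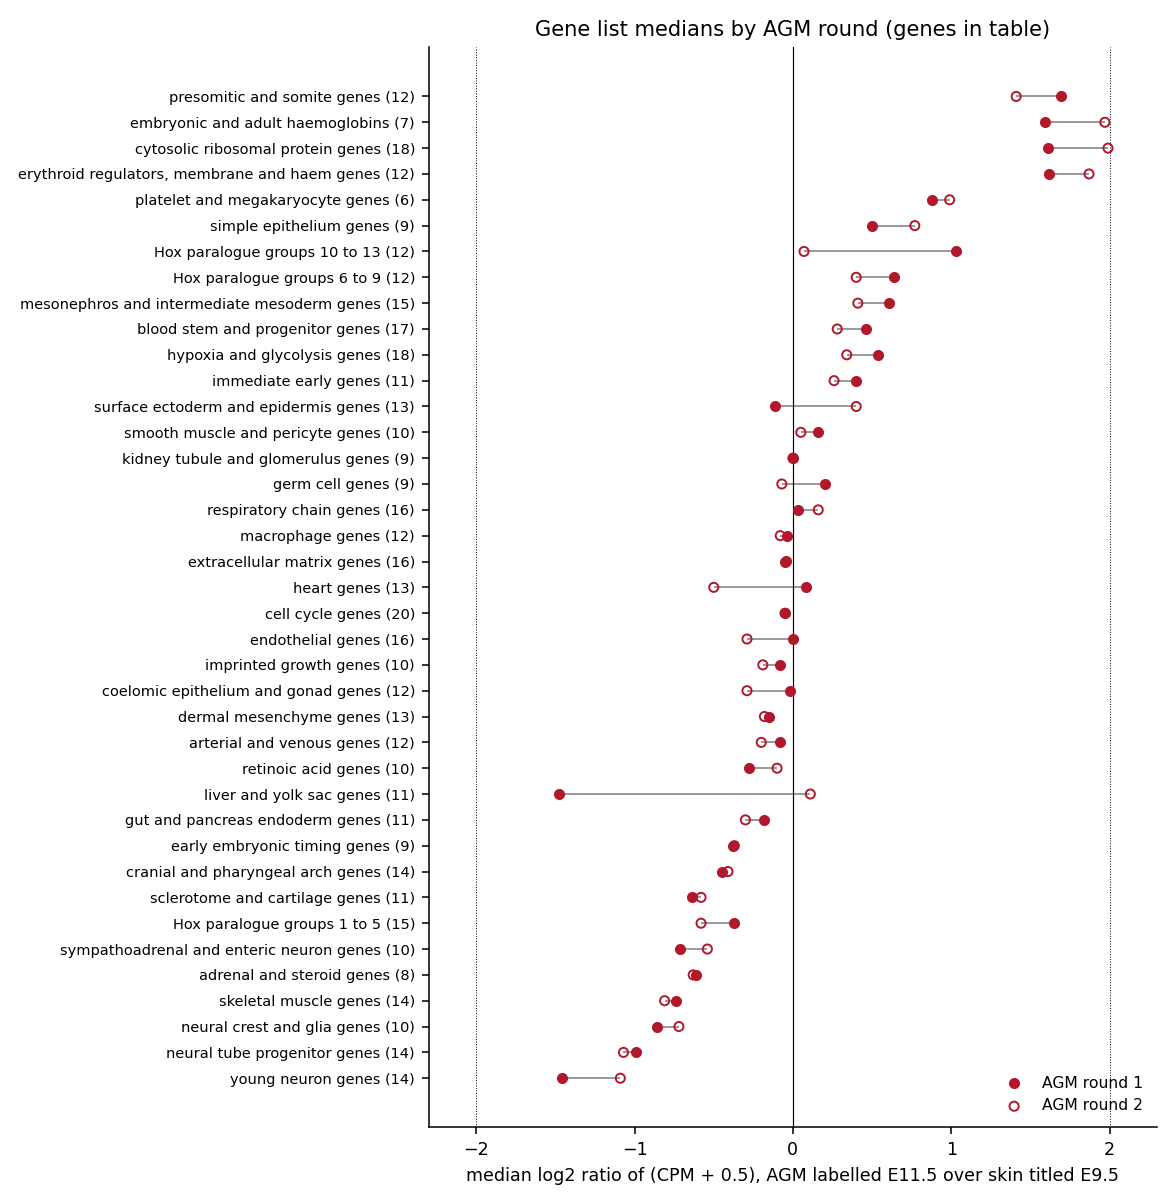
Median log2 ratio of (CPM + 0.5), AGM labelled E11.5 over skin titled E9.5, for 39 gene lists with the number of genes in the table in brackets; filled points are AGM round 1, open points round 2, and dotted lines mark 4-fold. In the median over both rounds, presomitic, haemoglobin, ribosomal and red cell lists lie highest and neuron and neural tube lists lowest, and the liver and yolk sac list differs most between the rounds.

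Of the 28 genes lower in AGM, those with the largest changes at 10 CPM or more, predicted names left out, were of unlike kinds. Larger changes were seen in predicted genes such as AC161763.1, with 0.0806 and 0.279 CPM in AGM and 45.9 CPM in skin. Itih2, a heavy chain of a serum protease inhibitor, had 0.685 and 1.11 CPM in AGM and 11.9 CPM in skin, and A2m, which encodes the inhibitor alpha-2-macroglobulin, had 2.26 and 2.32 CPM in AGM and 17.3 CPM in skin. Cntn2, an adhesion protein of growing axons, had 4.35 and 5.57 CPM in AGM and 29.6 CPM in skin. Of the LIM homeobox genes, Lhx2 had 2.54 and 2.51 CPM in AGM and 15.5 CPM in skin, and Lhx9 had 3.02 and 5.11 CPM in AGM and 25.8 CPM in skin. Kcnq1ot1, the imprinted antisense RNA of the Kcnq1 locus on chromosome 7, had 23.4 and 24.3 CPM in AGM and 109.9 CPM in skin. Mir99ahg, a microRNA host transcript, had 0.765 and 1.07 CPM in AGM and 11.3 CPM in skin. Onecut3 and En1, homeobox factors of young neurons among other cells, were at 0.161 to 0.418 CPM in AGM and at 2.76 and 3.66 CPM in skin. Both AGM rounds lay below skin in each of these genes.

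By number, most genes higher in AGM were of another kind. Of the 159, 122 (76.7%) share 10% or more of their 50-base stretches with another annotated gene, as do 21.4% of the 28 lower genes and 2466 of the 19727 genes with a value that were not called. The share of tested genes called higher was 0.19% where no stretch is shared, 0.278% at over 0 and under 10%, 2.02% at 10 to 25%, 5.39% in each of the next 2 bins and 8.06% at 75% or more. The median log2 ratio was -0.12 in the first of these bins and 0.67 in the last. Counts of such genes are uncertain, because a read from a shared stretch fits more than 1 gene and the sources used here do not say how the authors' counting treated it.

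Ribosomal protein genes made up much of this group. Of 88 genes with such names 47 were higher in AGM and none was lower. Rpl23a had 158 and 183 CPM in AGM and 1.3 CPM in skin, a ratio of 130 with a 95% counting interval of 88.4 to 199. Rpl19 had 401 and 442 CPM in AGM and 4.87 CPM in skin, and Rps29 had 231 and 220 CPM in AGM and 2.21 CPM in skin. Beyond the ribosome, Actg1, which encodes gamma actin, had 728 and 619 CPM in AGM and 8.83 CPM in skin, a ratio of 76.7 with an interval of 66.1 to 89.4. Ftl1, the ferritin light chain, had 391 and 369 CPM in AGM and 4.67 CPM in skin. Gapdh, a glycolytic enzyme gene, had 1636 and 1628 CPM in AGM and 54.7 CPM in skin. The intervals cover counting error alone.

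The same genes divided by how much of their sequence they share. All 47 called ribosomal genes were among the 80 that share 10% or more, where the median log2 ratio was 2.44. In the 8 that share less, none was called and the median was 0.07. Rps3 had 956 and 1051 CPM in AGM and 923 CPM in skin, and Rpl8 had 1112 and 1126 CPM in AGM and 1097 CPM in skin. Among the same 8, Rps20 had 592 and 653 CPM in AGM and 196 CPM in skin, and Rps15a had 322 and 468 CPM in AGM and 189 CPM in skin. Rplp1, which shares 60% of its stretches, had 859.7 and 894 CPM in AGM and 625 CPM in skin, so the share did not order every gene. The 8 genes summed to 4365 and 4737 CPM in AGM and 3837 CPM in skin, where all 88 summed to 38659.5 and 42939.8 CPM in AGM and 13397 CPM in skin. Over the 88 genes the share and the log2 ratio had a Spearman correlation of 0.579, a description across genes of the same libraries.

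The skin library titled ES9.5, labelled with the same skin and age but from the second project, was set beside these values. It had 137 CPM of Rpl23a, 418 of Rpl19, 422 of Actg1 and 373 of Ftl1, nearer to the AGM libraries than to the first-project skin. Other genes departed from AGM. ES9.5 lay below AGM with 76.6 CPM of Rps29, 264 of Gapdh and 29.9 of Rpl36, and above AGM with 1509 of Rps27. In each of these genes it lay above skin titled E9.5. It was 4-fold or more above skin titled E9.5 in 77 of the 122 genes with shared stretches and in 9 of the 37 others, where the figure over all tested genes was 9.51%. ES9.5 correlated with AGM labelled E11.5 at 0.785 and 0.792 and stood apart in many other genes. The part that sequence shared between genes, or the project, has in the ratios was not tested.

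**Figure D4:**
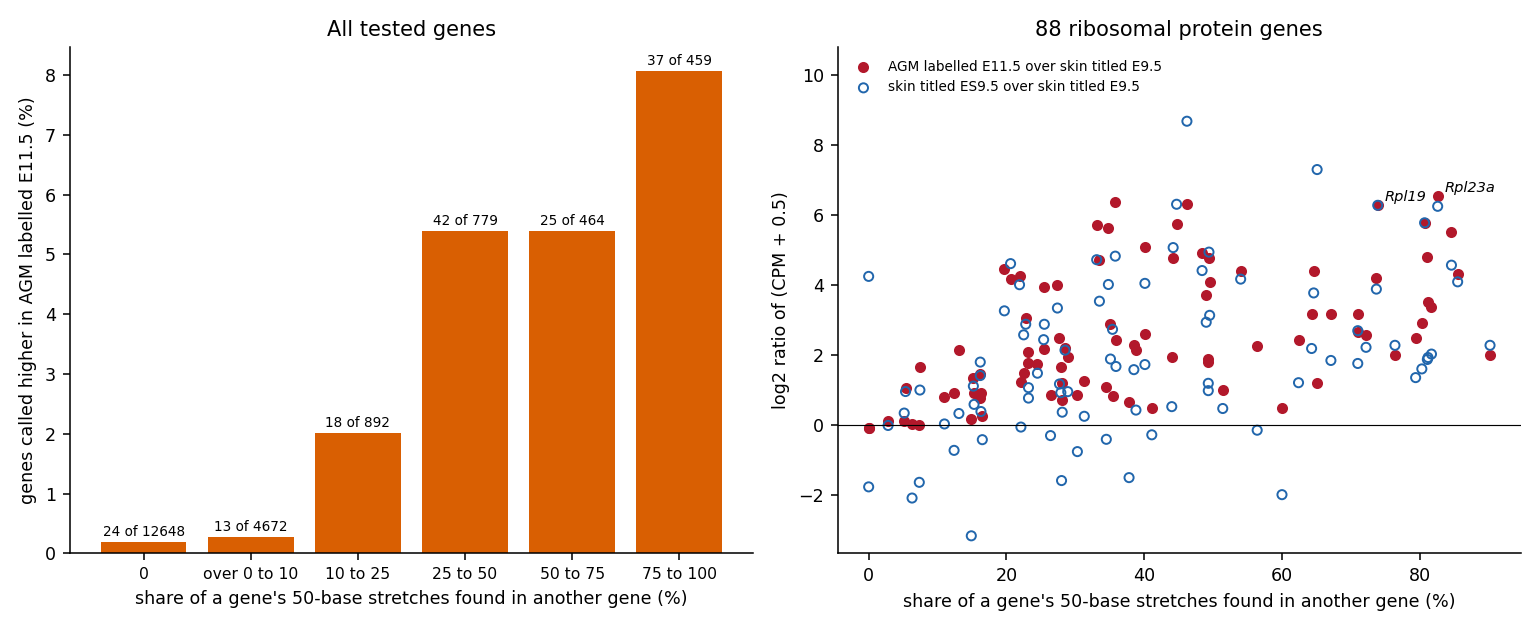
Left, percent of tested genes called 4-fold or more higher in AGM labelled E11.5, by the share of a gene's 50-base stretches found in another annotated gene, with counts over the bars. Right, log2 ratio of (CPM + 0.5) to skin titled E9.5 against that share for 88 ribosomal protein genes, for AGM labelled E11.5 (filled red) and for skin titled ES9.5 (open blue); Rpl23a and Rpl19, labelled, lie above 6 in AGM, and the 8 genes sharing under 10% have a median of 0.07.

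Tests were made between libraries outside the pair, though their likeness to the AGM libraries labelled E11.5 was among the values compared in choosing it, and those libraries added to the estimate of the spread. AGM labelled E10.5 (2 libraries) was set against skin titled E10.5 (1 library), where edgeR called 11.7% of the tested genes higher and 12.2% lower at an adjusted p under 0.05. Of the 159 genes higher in AGM labelled E11.5, 138 (86.8%) were called higher there, 2 lower and 19 neither. Of the 28 lower genes 20 (71.4%) were called lower, 3 higher and 5 neither. AGM labelled E9.5 over the same skin library had backgrounds of 17.2% higher and 16.8% lower, and there 137 of the 159 were called higher and 21 of the 28 lower. These comparisons share the E10.5 skin library and divide the tissues by the same sequencing projects as the pair does. The single skin library was assumed to vary like the AGM pairs.

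The genes with shared stretches carried most of that recurrence. Of the 122, 118 (96.7%) were called higher in AGM labelled E10.5 and none lower, with Rpl23a at a log2 change of 8.33 ± 0.28 (SE, edgeR adjusted p = 1.34e-06) and Actg1 at 6.45 ± 0.23 (edgeR adjusted p = 1.86e-06). Of the 37 others, 20 (54.1%) were called higher and 2 lower. Cdx4, Msgn1, Noto and Ripply2 are among the 37 and had 0 to 0.167 CPM in the fitted libraries other than AGM labelled E11.5. They passed the filter on low counts through the E11.5 libraries and could hardly be called here. So the shares of the 122 and of the 37 are not like for like. Of the 88 ribosomal protein genes 76 were higher and none lower.

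Tail bud genes mostly did not recur. Of the 12 presomitic and somite genes, T was called higher in AGM labelled E10.5, at 11.7 and 12.4 CPM in AGM and 1.28 CPM in skin (log2 change 3.25 ± 0.51, edgeR adjusted p = 0.00266). With the AGM round as a replicate block T was not called (edgeR adjusted p = 0.0833). Lfng and Wnt3a were called lower, and 9 did not pass. Lfng, which modifies Notch receptors in the segmentation clock, had 10.77 and 9.57 CPM in AGM labelled E10.5 and 68.1 CPM in skin. Tbx6 had 0.857 and 0.658 CPM in AGM labelled E10.5 and 0.616 CPM in skin (edgeR adjusted p = 0.779), and Msgn1 was at 0 in both AGM libraries. Ripply2 had 0.163 and 0.116 CPM in AGM labelled E10.5 and 0.132 CPM in skin. Msgn1 and Ripply2 passed the filter through AGM labelled E11.5 and were too low here for a call. Hox genes of groups 10 to 13 were called higher in 9 of the 10 that passed the filter on low counts. Hoxc10 had 49.3 and 40.5 CPM in AGM labelled E10.5 and 2.95 CPM in skin (log2 change 3.94 ± 0.41, edgeR adjusted p = 0.00029), and Hoxd13 had 14.3 and 11.4 CPM in AGM and 0.088 CPM in skin.

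Neural genes were called in this comparison, where 11.7% of all tested genes were called higher and 12.2% lower. All 14 neural tube progenitor genes and all 14 young neuron genes were called lower in AGM labelled E10.5, Sox1 by -5.86 ± 0.18 (edgeR adjusted p = 1.12e-06) with 1.35 and 1.43 CPM in AGM and 81.9 CPM in skin. Of 12 coelomic and gonad genes 8 were higher and none lower, with Wt1 at a log2 change of 5.35 ± 0.2 (edgeR adjusted p = 2.08e-06). Wt1 had 86.4 and 78 CPM in AGM labelled E10.5 and 2.02 CPM in skin. Genes of red cell regulation were higher in 10 of 12 and haemoglobins in 4 of 7, but with the AGM round as a replicate block these counts were 3 and 0. Immediate early genes were higher in 8 of 11 and lower in 1, with Fosb at 110.4 and 70.3 CPM in AGM labelled E10.5 and 0.22 CPM in skin (log2 change 8.66 ± 0.55, edgeR adjusted p = 2.17e-05). Smooth muscle and pericyte genes were higher in 10 of 10 there, though 0 of 10 were called in AGM labelled E11.5, where their sum was 228 and 216 CPM against 185 CPM in skin.

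Among the 28 lower genes, Cntn2 had 27.2 and 46.1 CPM in AGM labelled E10.5 and 351 CPM in skin (log2 change -3.25 ± 0.25, edgeR adjusted p = 6.19e-05). Lhx2 had 3.22 and 4.07 CPM in AGM and 8.36 CPM in skin (log2 change -1.18 ± 0.2, edgeR adjusted p = 0.00412). Kcnq1ot1 had 24.3 and 34.7 CPM in AGM and 50.8 CPM in skin (log2 change -0.77 ± 0.18, edgeR adjusted p = 0.0177). Lhx9 went the other way, with 19.6 and 15 CPM in AGM labelled E10.5 and 5.77 CPM in skin (log2 change 1.6 ± 0.3, edgeR adjusted p = 0.00614).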

How the data were processed

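PolyA RNA-seq counts were deposited by the authors as 1 table of raw read counts for 53465 genes in 14 libraries. Tools named in the submitters' processing notes are STAR 2.5.0a, Trimmomatic 0.36, DESeq2 1.20.0 and featureCounts 1.6.0, with the build GRCm38/mm10. Their settings, including those for reads that fit several genes, are not given in the sources used here. CPM were computed over all genes of a library. Log2 ratios used CPM + 0.5, and a gene was called at 4-fold in both AGM rounds. Tests used edgeR 4.0.16 in R 4.3.3 on 10 libraries without the ES titles: filterByExpr, TMM, 7 group means, robust glmQLFit and glmQLFTest, with Benjamini-Hochberg adjustment over 19945 genes and calls under 0.05. Residual degrees of freedom were 3 and the biological coefficient of variation was 12.1%, estimated from the AGM pairs. On simulated counts for AGM labelled E10.5 over skin E10.5 in 19945 genes it recovered 75% of the genes changed 2-fold and 95% of those changed 4-fold, and called 0.07% of unchanged genes. These figures hold for the simulated counts. They do not cover differences between projects, which cannot be told apart from tissue in the data.

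The AGM replicate number marks a sequencing project in the labels, and differences between rounds correlated at 0.379 to 0.545 between ages across genes, so the numbers pair the samples. The blocked fit adds the round. The mapping of second-round AGM columns to ages rests on the sample number alone.

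The compared libraries, the 39 gene lists (466 genes, 465 in the table) and the rules for named genes were chosen with earlier results of these data known. Named genes were the 12 largest ratios in each direction (7 lower genes met the 10 CPM minimum), up to 8 of the largest tested changes of called genes in each direction, list members, and genes said to be picked out after their values were seen. Predicted names, Xist and Y-linked genes were left out of these rules. The 50-base stretches came from protein-coding transcripts of GENCODE M21, and no source used here gives the read length. Counting intervals are 95% exact, and a floor is 3 counts in the library. Figures used matplotlib in Python. Alternatives were other pseudocounts, scalings, filters and thresholds, DESeq2 1.42.0, limma-voom with limma 3.58.1, left-out libraries and other sets of libraries. Restricting to genes with few shared stretches and leaving AGM E11.5 out of the fit, and counting pair members with tissue as the one term, were chosen after seeing the data. Some items that these rules name are not reported here.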

Additional observations from a re-analysis of the deposited data

Results flagged for a closer look

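In 5 genes the direction in AGM labelled E11.5 over skin titled E9.5 was opposite to that tested in AGM labelled E10.5 over skin titled E10.5, and the difference between the comparisons itself was not tested. Evx1 and Sv2b, which encodes a synaptic vesicle protein, were 4-fold or more higher in AGM labelled E11.5. In AGM labelled E10.5 they were lower than in skin, at log2 changes of -1.54 ± 0.41 (edgeR adjusted p = 0.0277) and -2.03 ± 0.32 (edgeR adjusted p = 0.00255). Lhx9, A2m and Itih2 were lower in AGM labelled E11.5. In AGM labelled E10.5 they were higher, at 1.6 ± 0.3 (edgeR adjusted p = 0.00614), 0.72 ± 0.22 (edgeR adjusted p = 0.0486) and 1.5 ± 0.44 (edgeR adjusted p = 0.0407). With the AGM round as a replicate block their edgeR adjusted p ranged over 0.000128 to 0.0219.

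The skin library titled ES9.5, which neither the pair nor the tested comparisons used, was 4-fold or more above skin titled E9.5 in 86 of the 159 genes higher in AGM, against 9.51% of all tested genes.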

How the results depend on the processing

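The counts of genes called in AGM labelled E11.5 over skin titled E9.5, 159 higher and 28 lower, rest on 1 skin library and on the pseudocount. They became 286 and 176 with a pseudocount of 0.1, the lower count became 14 with a pseudocount of 1, and both became 71 and 7 at 8-fold. With genes that share under 10% of their stretches 37 higher genes were left. With ES9.5 as the skin library 2315 were higher and 1734 lower, and named genes with a log2 ratio of the other sign included Rps27 (-2.36), Rpl17 (-0.55), Mir99ahg (0.01), A2m (1.94), Lhx2 (1.66), Cntn2 (3.45), Kcnq1ot1 (1.65) and Onecut3 (0.18); the cause was not tested. Leaving out an AGM E11.5 library, which drops the demand for both rounds, gave 195 to 225 higher and 36 to 49 lower (49 without round 2), and 157 to 185 members called higher and 24 to 31 lower in the tested comparisons. TMM or median-of-ratios scaling moved the median of all genes to 0 and left both counts within 1.5 times.

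In AGM labelled E10.5 over skin E10.5 the 2338 higher and 2435 lower genes became 4084 and 4622 with the replicate block, 584 and 717 in glmTreat, 985 and 784 with tissue as the one term over 4 AGM and 3 skin libraries, and 1583 to 1663 higher and 1574 to 1610 lower with an AGM E10.5 library left out. In AGM labelled E9.5 over skin E10.5 the 3423 higher and 3350 lower became 4873 and 5521 with the block, 961 and 797 in glmTreat, 985 and 784 with tissue as the one term, and 2526 to 3002 and 2347 to 2777 with an AGM E9.5 library left out. Over all 14 libraries edgeR called 0 genes in either direction in both comparisons, with 812 and 882 genes at an unadjusted p under 0.05, and DESeq2 called 80 higher and 192 lower in the first and 137 and 182 in the second. The block changed no count of pair members called by over 1.5 times (137 higher in each comparison, 21 and 22 lower).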
